A study of Mus musculus with 6 samples.

Results

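The genes described here are 10 genes of the B cell receptor and of the stages of B cell development: Ighm, Ighd, Igkc, Cd79a, Cd79b, Ms4a1, Pax5, Ebf1, Vpreb1 and Igll1. They were chosen by symbol, with earlier results of these data known. All 10 were found among the 47937 genes of the deposited table, 9 had a read in at least 1 library, and 7 reached the minimum for testing, a mean of 10 normalized counts. Each normalized count is a read count divided by a size factor of its library.

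The libraries were made from polyadenylated RNA of haematopoietic stem cells (HSCs), the marrow cells that renew themselves and give rise to all blood lineages. Marrow came from femora and tibiae of wild-type C57BL/6 mice, 8 weeks old and male per the labels, and magnetic beads had taken out cells bearing lineage markers. All cells were sorted as Lin-, Sca-1+, Kit+, CD34-, CD48-, Flt3- and Slam1+, and were divided by the surface receptor CD93 into a CD93+ group (CD93pos) and a CD93- group (CD93neg), with 3 libraries in each. The labels state biological replicates without naming the animals behind each library.

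A B cell recognises antigen with a membrane immunoglobulin, made of heavy and light chains, that signals through the CD79A and CD79B chains beside it. In the marrow a pro-B cell first rearranges its heavy chain gene. A pre-B cell then shows that heavy chain with the surrogate light chain, encoded by Vpreb1 and Igll1, before a kappa or lambda light chain replaces it. Ebf1 and Pax5 are the transcription factors that set and hold B lineage identity, and IgD and CD20 mark later B cells.

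Reads assigned to genes numbered 5794528 to 9509304 in the CD93pos libraries and 2832653 to 4614396 in the CD93neg libraries. CD93neg replicate 1 was sparse, with no read for 71.0% of the 11805 genes tested, against 2.10% to 26.4% in the other libraries. A floor of 3 reads corresponded to 0.315 to 1.06 CPM, that is reads scaled to 1e6 assigned reads, so lower levels were not detectable, and such floors cover counting error only. All 10 HSC markers examined were read in every library except CD93neg replicate 1, where 5 were read. The labels call the mice male, but CD93neg replicates 2 and 3 had 2419 and 1143 reads of Xist, transcribed from the inactive X, and none of the Y-linked Ddx3y. The CD93pos libraries had 0, 0 and 12 Xist reads and 855, 328 and 243 Ddx3y reads, and CD93neg replicate 1 had no read of either gene. Cd93, the gene of the sorted receptor, had 906, 1001 and 550 CD93pos reads against 0, 419 and 38, and the normalized counts of the groups overlapped. Results that rest on CD93neg replicates 2 and 3 are therefore given by library, and the folds also with 1 of these left out.

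Ighm, Ighd, Igkc, Cd79a, Ms4a1 and Pax5 were read almost entirely in CD93neg replicates 2 and 3, while Cd79b was read in both groups. Of the early genes, Ebf1 was read in the CD93neg libraries alone, Vpreb1 in the CD93pos libraries alone and Igll1 in none. Together the 10 genes took 1.12% and 3.41% of all assigned reads in CD93neg replicates 2 and 3. In the CD93pos libraries they took 0.00728% to 0.0100%, and CD93neg replicate 1 held 1 read of them. Beside them, 10 neutrophil markers summed to 12234 CPM in CD93neg replicate 2, 8452 in replicate 3, 0 in replicate 1 and 3.11 to 272 across CD93pos. In bulk libraries fewer cells of a type and less RNA per cell cannot be told apart.

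**Figure D1:**
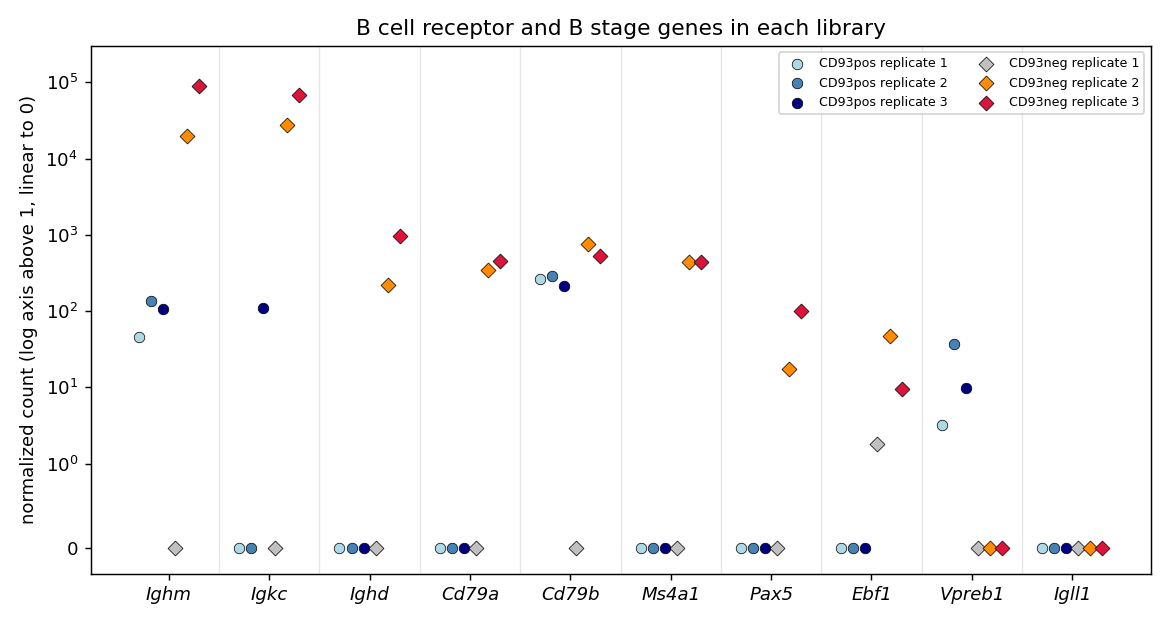
Normalized count of each of the 10 genes in each of the 6 libraries, on an axis that is logarithmic above 1 and linear down to 0. Circles are CD93pos libraries and diamonds CD93neg libraries; CD93neg replicates 2 and 3 lie above every CD93pos library for 8 of the 10 genes, while Vpreb1 has reads in the 3 CD93pos libraries alone and Igll1 in none.

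The regulatory sequences before the start of 2 of the genes are shown: Cd79a, read in CD93neg replicates 2 and 3 alone, and Igll1, read nowhere. They come from RefSeq promoters on GRCm38.p6, a table that held 5 of the 10 genes, and are printed 5′ to 3′ on the strand of the gene. Bases in any GENCODE exon were left out. Capitals mark motif matches. The Cd79a stretch is chr7:24897247-24897380 on the plus strand, and that of Igll1 is chr16:16863986-16864235 on the minus strand.
Cd79a: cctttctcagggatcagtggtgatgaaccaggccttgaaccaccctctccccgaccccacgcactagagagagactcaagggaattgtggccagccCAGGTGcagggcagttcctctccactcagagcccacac
Igll1: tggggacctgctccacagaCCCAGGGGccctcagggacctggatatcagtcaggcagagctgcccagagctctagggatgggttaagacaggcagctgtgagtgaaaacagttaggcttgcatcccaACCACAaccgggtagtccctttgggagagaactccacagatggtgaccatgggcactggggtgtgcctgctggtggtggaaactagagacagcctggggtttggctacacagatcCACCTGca

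The 250 bases before each RefSeq start were searched on both strands for 4 motifs: the octamer ATGCAAAT of Oct factors, the EBF core CCCNNGGG, the E-box CAGGTG of E proteins and the Runx site TGTGGT. The Igll1 window held an EBF match, an E-box and a Runx match, and none of these overlapped, the last 2 being on the opposite strand and so printed as their complements CACCTG and ACCACA. The Cd79a and Vpreb1 windows each held 1 E-box, the first of 2 Ebf1 windows held a Runx match, and the Pax5 window and the second of Ebf1 held no match. The octamer was in none of these windows. Among 32851 mouse promoters of the same length, 11.8% held the EBF core, 17.2% the E-box, 14% the Runx site and 1.60% the octamer, so such short matches are frequent. A match describes letters in a window and is no evidence of binding.

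Ighm and Igkc had the highest mean normalized counts of the 10 genes. Ighm, which encodes the constant region of the IgM heavy chain (ENSMUSG00000076617.9, GRCm38 chromosome 12, 113418558 to 113422730, minus strand), had 101, 171 and 173 reads across CD93pos replicates 1, 2 and 3. Across CD93neg replicates 1, 2 and 3 it had 0, 20727 and 57889. In CD93neg replicate 3 it ranked number 1 of all genes by reads, and in CD93neg replicate 2 number 5. The normalized counts averaged 96.0 ± 45.6 for CD93pos and 36732 ± 47577 for CD93neg (SD, n = 3 per group). They overlapped through the 0 of CD93neg replicate 1, and the log2 fold change of CD93pos against CD93neg was -3.78 (SE 3.90, limma adjusted p = 0.637), within the spread between replicates. It was -8.90 without CD93neg replicate 1 (limma adjusted p = 0.0887), -1.77 without replicate 2 and -0.67 without replicate 3. By CPM of the summed groups Ighm was 380-fold lower in CD93pos, a value of 501-fold without CD93neg replicate 2 and 140-fold without replicate 3. Transcripts of the heavy chain constant region are also made from unrearranged alleles in early lymphoid cells, and counts per gene do not separate the forms.

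Igkc, the constant gene of the kappa light chain, is a single exon on chromosome 6 (ENSMUSG00000076609.2, 70726435 to 70726966, plus strand). Its reads were 0, 0 and 176 for CD93pos against 0, 28862 and 42962 for CD93neg, where it ranked number 2 by reads in both replicates 2 and 3. CD93pos replicate 3 was thus the CD93pos library with Igkc reads. The normalized counts averaged 36.1 ± 62.5 for CD93pos and 31535 ± 33758 for CD93neg (SD, n = 3 per group). The log2 fold change came to -8.00 (SE 4.32, adjusted p = 0.480 by limma), and -13.13 without CD93neg replicate 1 (adjusted p = 0.109 by limma). By CPM of the summed groups it was 877-fold lower in CD93pos, or 506-fold without CD93pos replicate 1, 939-fold without CD93neg replicate 2 and 495-fold without replicate 3. Without CD93pos replicate 3 no read was left in CD93pos, and it was at least 35061-fold lower. Kappa made up 97.5% and 97.2% of constant region light chain reads in CD93neg replicates 2 and 3, the rest being Iglc1, Iglc2 and Iglc3 of lambda.

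Ighd encodes the constant region of IgD, which naive B cells show beside IgM through alternative splicing. It lies next to Ighm on chromosome 12 (ENSMUSG00000104213.5, 113406604 to 113416324, minus strand). It had no read in any CD93pos library, and 0, 232 and 616 reads in CD93neg, where the normalized counts averaged 394 ± 504 (SD, n = 3). CD93pos was lower by at least 607-fold, or 350-fold without CD93pos replicate 1, 790-fold without CD93neg replicate 2 and 233-fold without CD93neg replicate 3. The log2 fold change was -5.90 (SE 2.46, limma adjusted p = 0.386). Per kilobase of exon, Ighd stood at 0.0111 and 0.0106 of the Ighm level in CD93neg replicates 2 and 3, a close match between libraries whose Ighm levels differed by 4.29 times in CPM.

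The signalling chains went apart. Cd79a (ENSMUSG00000003379.7, chromosome 7, 24897381 to 24902197, plus strand) had no CD93pos read and 0, 361 and 288 reads in CD93neg (mean normalized count 265 ± 235, SD, n = 3), and was lower by at least 465-fold, or 268-fold without CD93pos replicate 1, 369-fold without CD93neg replicate 2 and 363-fold without CD93neg replicate 3. Exact 50-base matches to Gm32220 cover 8.31% of its windows. Its log2 fold change was -5.75 (SE 2.38, limma adjusted p = 0.381). Cd79b, its partner (ENSMUSG00000040592.11, chromosome 11, 106311341 to 106314762, minus strand), had 584, 364 and 349 reads for CD93pos against 0, 786 and 340 for CD93neg. It was thus read in every library except CD93neg replicate 1. Its normalized counts averaged 257 ± 37.9 for CD93pos and 426 ± 385 for CD93neg (SD, n = 3 per group). The log2 fold change was 1.80 (SE 2.81, limma adjusted p = 0.735), and it turned to -1.30 (SE 0.41, adjusted p = 0.201) without CD93neg replicate 1. The normalized counts of 748 and 531 in CD93neg replicates 2 and 3 lay above the highest CD93pos value of 288. Per kilobase, Cd79b stood at 2.22 and 1.20 times the Cd79a level in those libraries, while in CD93pos it was read at 34.1 to 43.9 RPKM, which is CPM per kilobase of exon, with no Cd79a read beside it.

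Ms4a1 encodes CD20, a surface protein of B cells from the pre-B stage on that antibody-secreting cells lose. It lies on chromosome 19 (ENSMUSG00000024673.9, 11249675 to 11266241, minus strand). It had no CD93pos read, and 0, 468 and 278 reads in CD93neg, with a mean normalized count of 293 ± 254 (SD, n = 3). CD93pos was lower by at least 534-fold, or 308-fold without CD93pos replicate 1, 357-fold without CD93neg replicate 2 and 470.4-fold without CD93neg replicate 3. The log2 fold change was -5.86 (SE 2.41, limma adjusted p = 0.376). Its normalized counts in CD93neg replicates 2 and 3, 445 and 434, were the closest pair among the 8 genes read there.

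Pax5, the factor that holds B cell identity, had no CD93pos read and 0, 18 and 65 reads in CD93neg, with a mean normalized count of 39.6 ± 54.4 (SD, n = 3). It is on chromosome 4 (ENSMUSG00000014030.15, 44524757 to 44710487, minus strand). CD93pos was lower by at least 59.5-fold, or 34.3-fold without CD93pos replicate 1, 83.4-fold without CD93neg replicate 2 and 18.1-fold without CD93neg replicate 3. The log2 fold change was -3.62 (SE 1.89, limma adjusted p = 0.467), and -2.09 without CD93neg replicate 3. Exons of the antisense genes Gm12462 and 5730488B01Rik overlap 1.4% and 7.2% of its exon bases, and reads there cannot be assigned to a strand because the counting setting is not given in the sources used here.

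No member passed the main test, nor did any other gene: of 11805 genes limma called 0, or 0.0%, at the adjusted threshold of 0.05, and 1436 had an unadjusted p under 0.05. Of these 1391 were higher and 45 lower, and after quantile normalization, which moved the median of all genes to 0.02, 689 were higher and 916 lower. edgeR's quasi-likelihood test on the recovered reads also called 0. The median log2 fold change of the 7 members tested was -5.75, against 2.36 for all genes tested, and 1 of the 7 was positive against 79.9% of all. Without CD93neg replicate 1 these medians were -8.78 and 0.43. Ighd, Cd79a, Ms4a1 and Pax5 had no CD93pos read and passed the testing minimum through CD93neg alone, which fixed their sign. Vpreb1, read in CD93pos alone, and Ebf1, read in CD93neg alone, fell under that minimum. The contrast with all genes therefore describes the tested members and tests nothing. In the authors' deposited table, made with DESeq2, 9 of the 10 genes had an adjusted p. Of these 6 were lower in CD93pos at an adjusted p under 0.05, against 0.389% of all 11813 genes with an adjusted p. The authors' deposited table calls 5.97% of genes in either direction, and none of the 10 higher. The authors' deposited table gives adjusted p-values of 0.00242 for Ighd, 0.00316 for Ms4a1, 0.00358 for Cd79a, 0.00703 for Ighm, 0.0163 for Igkc and 0.0360 for Pax5. In the authors' deposited table, Ebf1 (0.0581), Vpreb1 (0.164) and Cd79b (1.0) did not pass. DESeq2 repeated without 1 library called 3 to 7 members, with Cd79a, Ms4a1 and Ighd in each of the 6 repeats. Ighm and Pax5 were each lost when any of the 3 CD93pos libraries was left out, Pax5 also without CD93neg replicate 3, and Igkc without CD93pos replicate 1 or 2. Ebf1 was called without CD93neg replicate 1 or 3.

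Without CD93neg replicate 1, 8 of the 10 genes, the untested Ebf1 among them, had both remaining CD93neg libraries above every CD93pos library. This held for 13.8% of all genes tested and for 9 of the 10 neutrophil markers, so it is not particular to the B genes. The authors' deposited table calls 4 of these markers, all lower in CD93pos. Their median log2 fold change was -5.19, and -9.06 without CD93neg replicate 1. Of the 10 genes, 5 (Ighd, Cd79a, Ms4a1, Pax5 and Ebf1) had reads in CD93neg replicates 2 and 3 and in no CD93pos library. Of all 20492 genes with a read, 68 showed that pattern, 0.332%. Among the 27 tested genes that did, 0.229% of those tested, 4 were members, and Igkv8-30, Ighv1-55, Iglc1, Iglc2, Igkj1 and Ighj1 were further immunoglobulin genes. The neutrophil gene Ly6g was also among the 27. When CD93pos replicate 1, 2 or 3 was left out, 82, 32 and 38 tested genes showed the pattern. As the members were chosen with earlier results known, the shares set against all genes describe them and test nothing.

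The early genes had few reads. Vpreb1 (ENSMUSG00000059305.10, chromosome 16, 16868403 to 16870843, minus strand), which encodes the variable-like chain of the surrogate light chain, had 7, 47 and 16 CD93pos reads and no CD93neg read. Its mean level was 3.69 ± 3.90 CPM in CD93pos (SD, n = 3). The groups did not overlap, and a read in each CD93pos library with none in CD93neg was found for 4.15% of the genes with a read and for 4.6% of those tested. It was at least 10.9-fold higher in CD93pos by the floor of 3 reads over the CD93neg group. The bound was 4.81-fold without CD93pos replicate 2, 16.9-fold without CD93pos replicate 1, 6.06-fold without CD93neg replicate 2 and 7.74-fold without CD93neg replicate 3. At the CD93pos level of 3.12 CPM over the summed group, 8.83, 14.4 and 9.36 reads would fall in CD93neg replicates 1, 2 and 3. That level rests largely on CD93pos replicate 2, with 47 of the 70 reads. The figures also assume reads in proportion to depth, while CD93neg replicate 1 had no read for 71.0% of the genes tested.

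Vpreb1 fell under the testing minimum, with a mean normalized count of 8.38. An exact two-sided permutation test of its CPM gave p = 0.1, the lowest value possible with 3 libraries per group (adjusted p = 0.1 over 2 genes, Vpreb1 and Ebf1). Groups of 3 that do not overlap always give this value, so the test adds nothing to that separation. A limma fit without the testing minimum, adjusted over 20492 genes, gave 9 members an adjusted p and called 0 of them. The exons of Vpreb1 share 9.0% of their bases with Top3b, a topoisomerase gene on the opposite strand. Top3b had 1749, 1001 and 1652 CD93pos reads and 0, 325 and 621 CD93neg reads. In normalized counts Top3b stood at 800, 793 and 1017 in CD93pos replicates 1, 2 and 3, and Vpreb1 at 3.20, 37.2 and 9.85. The part of Top3b in the Vpreb1 count was not tested. Of the 50-base windows of Vpreb1 transcripts, 23.6% also occur in transcripts of Vpreb2, a close copy with 1 read in all, or of Top3b. Its count is therefore uncertain.

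Igll1, the constant-like chain of the surrogate light chain, lies beside Vpreb1 on chromosome 16 (ENSMUSG00000075370.10, 16860671 to 16863985, minus strand). It had no read in any library, which allows up to 0.315 to 1.06 CPM. None of its 50-base windows occurs in an annotated transcript of another gene. The pair whose proteins form the surrogate light chain was therefore not read together in any library.

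Ebf1, the factor that starts the B lineage programme, lies on chromosome 11 (ENSMUSG00000057098.14, 44617317 to 45008091, plus strand). It had no CD93pos read and 1, 49 and 6 reads in CD93neg, with a mean of 4.32 ± 5.51 CPM there (SD, n = 3). All CD93neg libraries were above all CD93pos libraries, with a margin of 1 read in CD93neg replicate 1. Of the genes with a read, 0.039% were read in all 3 CD93neg libraries and in no CD93pos library, against 4.15% for the reverse. The sparse CD93neg replicate 1, with reads for 4429 genes, limits the first share. The exact permutation test of Ebf1, two-sided, also gave p = 0.1 (adjusted p = 0.1 over the 2 genes), again fixed by the lack of overlap. CD93pos was lower by at least 40.1-fold, or 23.1-fold without CD93pos replicate 1, 8.98-fold without CD93neg replicate 2 and 50.3-fold without CD93neg replicate 3. Its mean normalized count of 9.64 was just under the testing minimum, while that of Pax5, 19.8, was the lowest among the tested members.

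**Figure D2:**
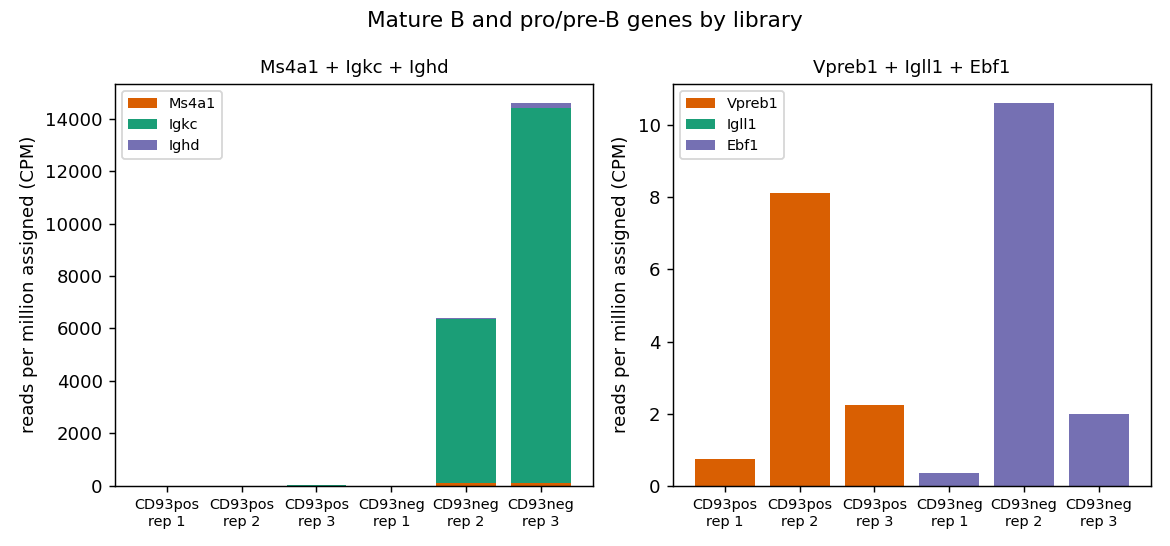
Stacked CPM of Ms4a1, Igkc and Ighd (left) and of Vpreb1, Igll1 and Ebf1 (right) in each library, on separate linear axes from 0. The left bars stand at 6406 and 14604 CPM in CD93neg replicates 2 and 3 and are nearly all Igkc; the right bars reach 10.6 CPM and are Vpreb1 in CD93pos and Ebf1 in CD93neg.

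Set against each other by stage, the mature genes (Ms4a1, Igkc and Ighd) summed to 0, 0 and 24.6 CPM in CD93pos and to 0, 6406 and 14604 CPM in CD93neg. The pro-B and pre-B genes (Vpreb1, Igll1 and Ebf1) summed to 0.736, 8.11 and 2.24 CPM in CD93pos and to 0.353, 10.6 and 2.00 in CD93neg. The first sum separated CD93neg replicates 2 and 3 from all other libraries. The second overlapped between the groups, with means of 3.69 ± 3.90 CPM for CD93pos and 4.32 ± 5.51 for CD93neg (SD, n = 3 per group). It was Vpreb1 alone in CD93pos and Ebf1 alone in CD93neg. Igkc made up 6255 and 14306 CPM of the mature sums in CD93neg replicates 2 and 3, so those sums largely follow Igkc. Counts per gene do not tell which stage the Igkc reads came from. CD20 is found from the pre-B stage on, and Ebf1 also holds B lineage identity, so the sums do not divide the stages cleanly.

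The members also differed between CD93neg replicates 2 and 3. In CPM, replicate 3 had 4.29 times the Ighm of replicate 2, 4.08 times the Ighd, 2.29 times the Igkc and 5.55 times the Pax5. For Cd79a, Ms4a1 and Cd79b the same quotient was 1.23, 0.913 and 0.665, and for Ebf1 it was 0.188. The ratio of Ighm to Cd79a, per kilobase of exon, was 44.4 in replicate 2 and 155 in replicate 3. On the RPKM scale Igkc reached 11757 and 26891 and Ighm 2382 and 10221 in these libraries, while Cd79a stood at 53.7 and 65.8, Ms4a1 at 16.4 and 15.0 and Pax5 at 0.441 and 2.44. The quotients of Ighm, Ighd and Pax5 thus lay near each other, and those of Cd79a and Ms4a1 near 1.

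**Figure D3:**
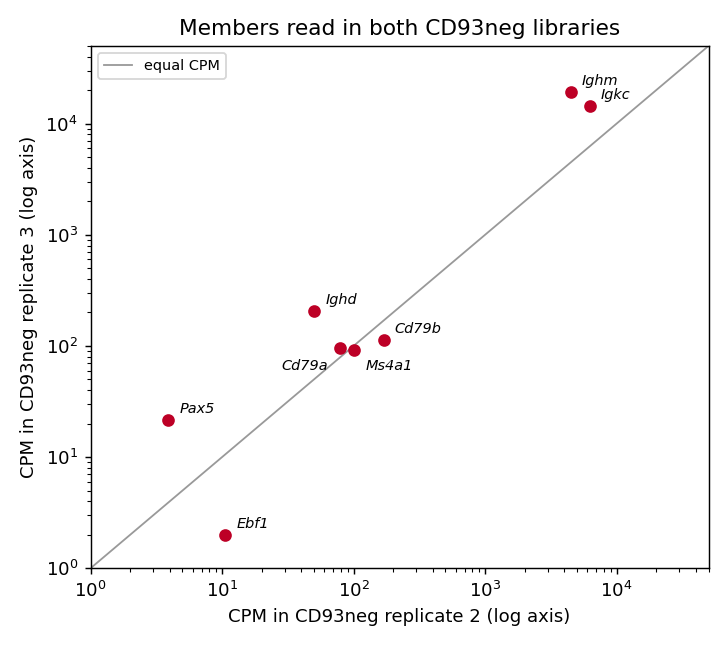
CPM of the 8 members read in both CD93neg replicate 2 (horizontal) and replicate 3 (vertical), on log axes, with a line of equal CPM. Ighm, Ighd, Igkc and Pax5 lie above the line, Cd79a, Ms4a1 and Cd79b near it, and Ebf1 below it.

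Few variable genes were read, and counts per gene do not show which of them were joined to a constant gene. Of 160 kappa variable genes, 7 and 9 were read in CD93neg replicates 2 and 3, and of 185 heavy chain variable genes 5 and 7. Igkv8-30 alone had 13830 of 14140 kappa variable reads in replicate 2 and 10733 of 22046 in replicate 3.

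Jchain, Mzb1 and lambda constant genes, but not all genes of antibody secretion, were read mainly in those libraries. Of 15 other constant genes and plasma cell genes, 10 had a read and 7 were tested, with a median log2 fold change of -5.21 and 0 positive, against 2.36 for all genes tested. limma called none of them. The authors' deposited table calls 4 of them, all lower in CD93pos. Iglc1, Iglc2, Ighg3 and Mzb1 had no CD93pos read and passed the testing minimum through CD93neg alone, which fixed their sign. Sdc1 and Prdm1, read in CD93pos alone, fell under that minimum. Jchain, which joins IgM pentamers, had 0, 0 and 8 CD93pos reads and 0, 5540 and 8001 CD93neg reads (authors' deposited table, adjusted p = 0.00156). Iglc1 and Iglc2, lambda constant genes, had no CD93pos read and 103 and 391 reads in CD93neg replicate 2 and 1009 and 140 in replicate 3. Mzb1, an endoplasmic reticulum protein of B and plasma cells, had 130 and 260 reads there and no other. Xbp1, a factor of secretory cells that many other cells also use, was read in every library, from 2221 to 3893 reads. The plasma cell genes Sdc1 and Prdm1 had no CD93neg read, with 106, 0 and 0 and 0, 1 and 23 CD93pos reads, and Irf4 had 2 reads in CD93neg replicate 3. Igha, Ighg1, Ighg2b, Ighg2c and Ighe had no read in any library, and Ighg3 had 216 in CD93neg replicate 2 alone.

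Genes of the B cell surface were read in patches. All 20 had a read and 16 were tested. Of the 16, 7 were positive (43.8%, against 79.9% of all genes tested). The median log2 fold change was -1.18, against 2.36 for all. With CD93neg replicate 1 left out, the medians were -2.08 and 0.43. Cd22, Cd40, Fcmr and Spib passed the testing minimum through CD93neg alone, which fixed their sign. limma and the authors' deposited table called none. Cd22, an inhibitory receptor, had 414 reads in CD93neg replicate 2 and none in any other library. Fcmr, an IgM receptor, and Spib, a B cell factor, had 474 and 163 reads in CD93neg replicate 3 alone. The most abundant genes of the list were read more widely. Ltb, lymphotoxin beta, had 1219, 1046 and 1648 CD93pos reads and 1009, 3093 and 2510 CD93neg reads (log2 fold change -1.83, limma adjusted p = 0.175). Tnfrsf13b, the receptor TACI, had 1310, 1004 and 1149 CD93pos reads against 0, 361 and 578. Cd72 had 574, 323 and 240 against 0, 509 and 174, and H2-Ob, an MHC class II chaperone subunit, had 475, 142 and 171 against 0, 0 and 291.

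The most specific genes of early B cells had few or no reads, while factors used more widely were read in both groups. Rag1 and Rag2, which cut the immunoglobulin genes for rearrangement, had no read in any library. Bst1 and Il2ra, on the same list but not specific to early B cells, also had none. Dntt, which adds bases at the joins, had 8 reads in CD93pos replicate 1, and Vpreb3, a chaperone of the pre-B receptor, had 48 and 3 reads in CD93neg replicates 2 and 3. Of 16 such genes 12 had a read and 6 were tested, 5 of the 6 positive, with a median log2 fold change of 2.55, near the 2.36 of all genes, and -0.18 without CD93neg replicate 1. limma called none. Sox4, a factor also of other progenitors, had 387, 207 and 271 CD93pos reads against 0, 4 and 35. Foxo1 had 166, 0 and 2 against 0, 48 and 35. Il7r, the interleukin 7 receptor, had 53 reads in CD93pos replicate 3 and 11 in CD93neg replicate 2, and Ikzf3 had 86 in CD93pos replicate 3 alone. The 4 most abundant are expressed well beyond B cells. Cd24a had 435, 786 and 624 CD93pos reads and 1, 1430 and 804 CD93neg reads. Ikzf1, which encodes Ikaros, had 1541, 2132 and 295 against 0, 334 and 294. Tcf3, which encodes the E2A proteins, had 2147, 562 and 528 against 0, 390 and 281, and Erg had 958, 469 and 435 against 1, 968 and 236.

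The kinases and adaptors that act below the receptor, most of them shared with other blood cells, were mostly read in both groups. Of 16, 15 had a read and 13 were tested, 10 of the 13 positive (76.9%, against 79.9% of all genes tested), with a median log2 fold change of 1.35, against 2.36 for all. Without CD93neg replicate 1 the medians were 0.46 and 0.43. limma and the authors' deposited table called none. Cd81, a tetraspanin of many cell surfaces, had 8938, 8519 and 9831 CD93pos reads and 6635, 4544 and 2380 CD93neg reads (log2 fold change -0.07, limma adjusted p = 0.930). Dapp1, an adaptor, had 9073, 4009 and 7667 against 906, 2674 and 1951 (0.76, adjusted p = 0.393). Ptpn6, the phosphatase SHP-1, had 2586, 2156 and 2677 against 3805, 3294 and 1568 (-1.33, adjusted p = 0.244). Lyn, a kinase that phosphorylates CD79 chains, had 970, 613 and 1094 against 3941, 22 and 428. Blk, a B cell kinase of the same family, had no read.

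**Figure D4:**
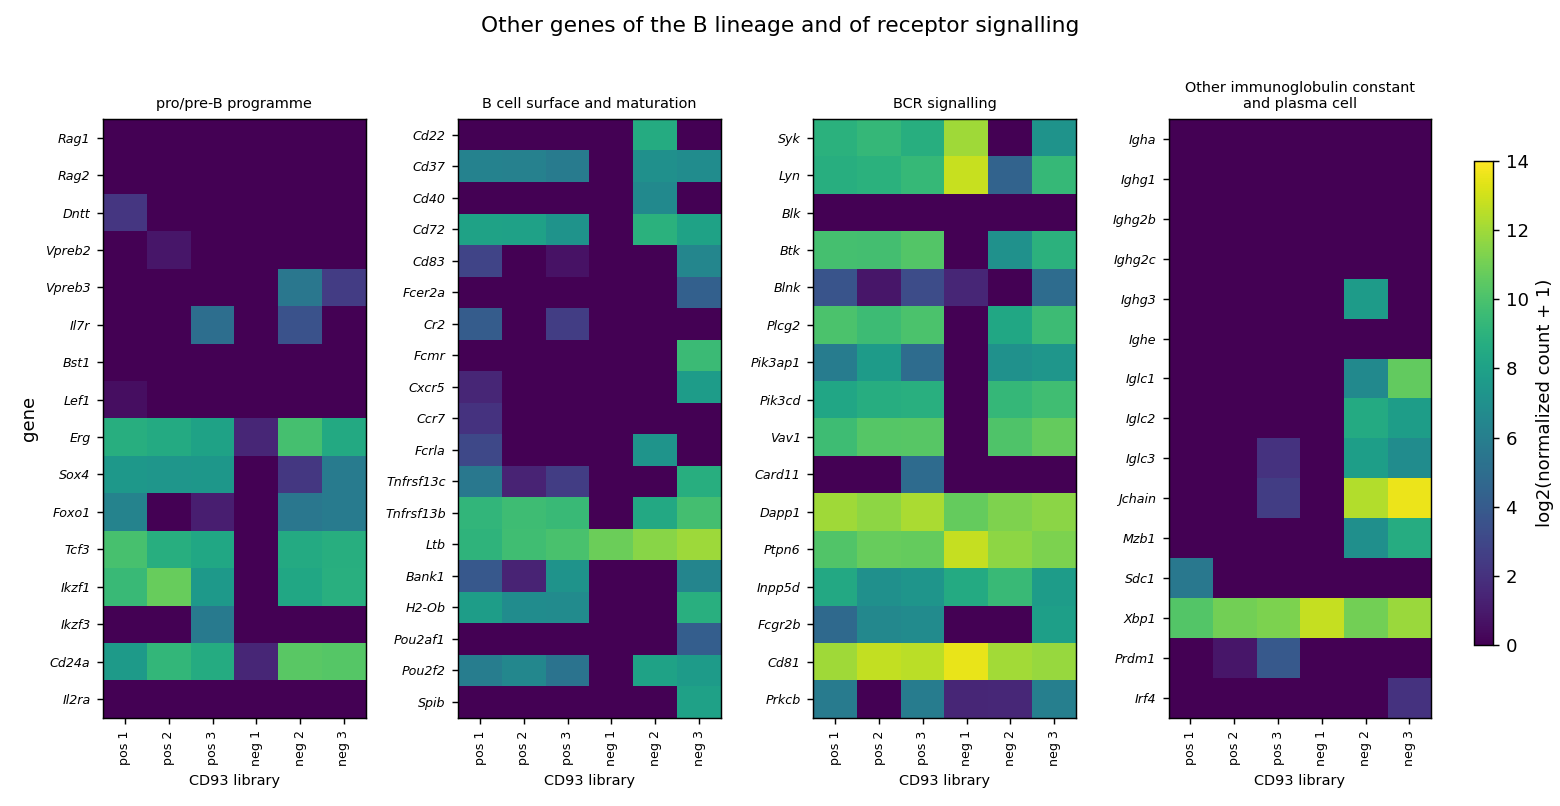
Level of genes of 4 lists in each library (1 gene of the surface list is not shown), as log2(normalized count + 1), with dark blue at 0. Rag1 and Rag2 are at 0 throughout, Jchain and the lambda constant genes are bright in CD93neg replicates 2 and 3, several surface genes are read in 1 CD93neg library alone, and signalling genes are read across the CD93pos libraries.

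By Pearson correlation of log2(normalized count + 1) over the 6 libraries, the genes most like Igkc among 10728 compared were Dupd1 (0.999), Cd2 (0.991) and H2-DMb2 (0.988). Each was read in CD93pos replicate 3 and in CD93neg replicates 2 and 3, and in no other library. Those most like Ebf1, the early gene with the highest mean, were Rps19-ps5 (0.985), Rplp1 (0.981) and Trim5 (0.970), all read in every library. These values describe 6 libraries whose depth and sparse counts all genes share.

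Markers of other cell types moved with some of the same libraries. All 10 neutrophil markers were read in CD93neg replicate 2 and 9 in replicate 3. There monocyte and macrophage markers summed to 1142 and 3990 CPM, against 0 for CD93neg replicate 1 and 320 to 439 across CD93pos. Lyz2, which neutrophils also express, gave 1098 and 3653 CPM of the first 2 sums, and Adgre1 had no CD93neg read. Of the T cell markers, Cd3e and Cd3g were at 0 in all 3 CD93neg libraries, while Trac had 66 reads in CD93neg replicate 2 and 2, 0 and 29 in CD93pos. The list of 9 summed to 0.353, 426 and 127 CPM in CD93neg and 204 to 244 in CD93pos, most of it Lat. Mast cell and basophil markers ran the other way, at 94.8 to 1057 CPM in CD93pos and 0, 27.5 and 0 in CD93neg. Plasmacytoid dendritic markers summed to 2773, 498 and 713 CPM in CD93neg and 242 to 386 in CD93pos, with Siglech read in CD93neg replicate 3 alone and Cox6a2 in none. Tcf4 gave 2450.4 CPM of the first of these sums, and Ly6d, read in CD93neg replicates 2 and 3 alone, had 136 and 202 reads. Erythroid markers summed to 228, 133 and 80.6 CPM in CD93neg and 371 to 900 in CD93pos, and natural killer markers to 247, 18.6 and 122 against 203 to 408. HSC markers summed to 5707, 4634 and 3207 CPM in CD93neg and 2227 to 2892 in CD93pos. The part of other cell types, of the mice behind each library and of depth in the B gene values was not tested.

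**Figure D5:**
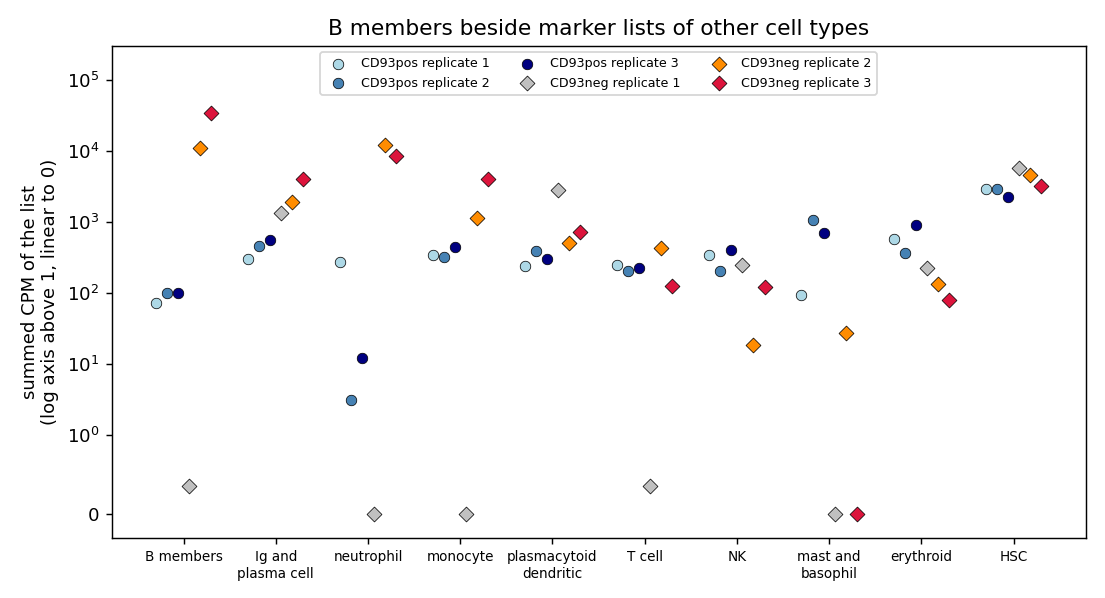
Summed CPM of the 10 B genes and of 9 other lists in each library, on an axis that is logarithmic above 1 and linear down to 0. The B genes and neutrophil markers are high in CD93neg replicates 2 and 3 and at or near 0 in CD93neg replicate 1, and HSC markers are present in all 6 libraries.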

How the data were processed

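Reads were processed with STAR, featureCounts of Subread 1.5.0-p1 and DESeq2 1.26 on GRCm38 or mm10, per the submitters' processing notes. The release of the annotation and the strand setting were not given in the sources used here. The first table that the authors deposited holds signal, each gene's count over the size factor of its library. A second table deposited by the authors holds mean signal, log2 fold change, its standard error and Wald statistic (a score), p-value and adjusted p-value.

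Whole reads were recovered for 100% of values above 0 (tolerance 0.001). The 11805 genes averaging 10 or more normalized counts were tested with limma 3.58.1 (trend) on log2(normalized count + 1), two-sided, Benjamini-Hochberg adjusted over all of them, at 0.05. This scale understates changes of low genes and lets a 0 in 1 library weigh heavily. edgeR 4.0.16 and DESeq2 1.42.0 on recovered reads were alternatives (R 4.3.3, Python 3.11.15). P-values set a difference against the spread between these libraries, and the labels do not name the animals behind them. Bounds for unread groups use 3 reads over the summed group. GENCODE M21 (GRCm38), holding 47224 of the 47937 IDs, gave positions, exon lengths and transcripts.

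All 10 members are named. From each pathway list the 4 genes with the highest mean were named. For Igkc and the most abundant early member, the 3 most correlated tested genes were named, leaving out members, predicted and mitochondrial genes, and segments of immunoglobulin and T cell receptor loci. For 1 gene of the B cell surface list, included in the counts, values are not reported here. Any other gene named was chosen after its values were seen. The members and lists were chosen with earlier results of these data known.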

Additional observations from a re-analysis of the deposited data

How the results depend on the processing

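No member was called by limma under any alternative, whereas DESeq2 on the recovered reads called 6 members, all lower in CD93pos, and 705 genes. With 1 library left out, limma called 0 members and 0 to 1880 genes, and DESeq2 (added after the data were seen) called 3, 3 and 4 members and 310, 245 and 220 genes without CD93pos replicates 1, 2 and 3, and 7, 6 and 6 members and 1339, 1094 and 2446 genes without CD93neg replicates 1, 2 and 3. A pseudocount of 0.5 called 206 genes and the replicate block 24, with 0 members in each; deviations of same-numbered libraries correlated at 0.0372, 0.0191 and 0.0605, so the numbers were not taken as pairs. Outside DESeq2, adjusted p-values of the 7 tested members ranged from 0.0734 to 1.0 over the alternatives. Directions held for all tested members except Cd79b, which turned to -0.87 under quantile normalization, -0.65 in edgeR, -0.73 in DESeq2, -1.30 without CD93neg replicate 1 and -0.97 with library quality weights (added after the data were seen). From a main value of 1.80, the limma fits with 1 library left out ran from -1.30 to 3.47. The mature B sum, CD93pos minus CD93neg, was -6995 CPM, -32187 in the authors' normalized counts, another scale, and -10497 to -3195 CPM with a library left out. The early sum differed by -0.63 CPM and lay between -2.84 and 2.52 with a library left out, turning to 0.851 without CD93pos replicate 1, 0.10 without CD93pos replicate 3 and 2.52 without CD93neg replicate 2. Depth limits Vpreb1, Ebf1 and Pax5, with 70, 56 and 83 reads in all.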
